A study of Mus musculus with 4 samples.

Results

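The 10 genes described here encode enzymes of fatty acid synthesis, elongation and desaturation (Acly, Acaca, Acacb, Fasn, Elovl6, Scd1 and Scd2), the enzyme that breaks down malonyl-CoA (Mlycd) and the SREBP transcription factors (Srebf1 and Srebf2). They were chosen by name and not by a measured value. Each gene was given the merged open chromatin regions that overlapped its body or the 5000 bp on either side of it. These were 224 of the 337776 regions found in any library, and 86 of the 137553 regions found in at least 2 libraries.

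ATAC-Seq inserts adapters into accessible DNA with the Tn5 transposase, and stretches with many insertions are called as peaks. The mice were adults on a C57BL/6 background, and the cells were sorted from bone marrow. Controls are labelled WT and described in the study's text as Cpt1a fl/fl, and 2 control libraries were compared with 2 libraries labelled Cpt1a-KO. In the KO mice Vav1-Cre, which is active throughout the blood system, deleted the floxed Cpt1a. The labels call the cells ltHSC, and the study's text calls them HSPCs. Nothing in the labels ties the replicates to separate mice, so the spread between libraries of a genotype may be technical.

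Cytosolic fatty acid synthesis starts from acetyl-CoA, which is carboxylated to malonyl-CoA and then condensed into palmitate. Malonyl-CoA is also the natural inhibitor of CPT1A, the enzyme deleted here, which carries fatty acids into the mitochondrion. SREBP1 is best known for driving genes of fatty acid synthesis and SREBP2 for driving those of cholesterol synthesis and uptake, and both are held in the ER membrane by SCAP and INSIG until they are cut and released.

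The lists held 240940 to 277594 summits per library, without read counts, so that depth was unknown. The KO libraries had shorter intervals, with a median of 140 and 157 bp against 179 and 183 bp in the controls, and covered 42.59 and 44.36 Mb against 52.89 and 48.91 Mb. In the list of stem and progenitor markers, all 8 genes with a start in the reference table (Kit, Procr, Hlf, Mecom, Gata2, Slamf1, Meis1 and Fgd5) had a peak there in all 4 libraries. So did 64.2% of protein-coding genes, and the peak of Mecom was weak in KO 2 (percentile 5.2). Of the erythroid markers, Epb42 had a peak at its start in all 4 libraries and Klf1 in none. Alb, the only non-blood marker with a listed start, had none. None of the T cell (0 of 3) or mast cell (0 of 2) marker starts had a peak in any library, while B cell markers (2 of 3 starts, Cd79a and Pax5) and neutrophil markers (2 of 3) had one in all 4. At the start of Cpt1a itself the peak lay at percentile 84.3 and 80.9 in the controls and 86.1 and 89.2 in KO. Of the 18 regions of Cpt1a in at least 2 libraries, 11 were held by all 4, 2 only by controls and 0 only by KO. The shares over the genome were 58.4%, 6.05% and 3.47%. Peak lists do not show the deletion, so the labels could not be checked on the targeted gene.

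Most regions of these genes were open in both genotypes. Of the 86 regions, 56 (65.1%) held a peak in all 4 libraries, against 58.4% of all regions. Only 3 regions were held by both controls and by neither KO library, where the share over the genome was 6.05%, and 1 was held by both KO libraries and by neither control, where that share was 3.47%. With the 100000 strongest summits of each library, both counts were 0, where the shares over the genome were 2.75% and 3.11%. A further 12 regions were held by 3 libraries and 14 by 1 control and 1 KO library. Another 138 regions were seen in 1 library alone, with 50 and 26 in the controls and 30 and 32 in KO. These were weak peaks, with a median percentile of 21.9 against 77.5 for regions in all 4 libraries. The percentile is the standing of a region's strongest peak among all peak intervals of its own library by the authors' fold over background, so that 100 would be the strongest interval, and it needs no read depth.

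**Figure D1:**
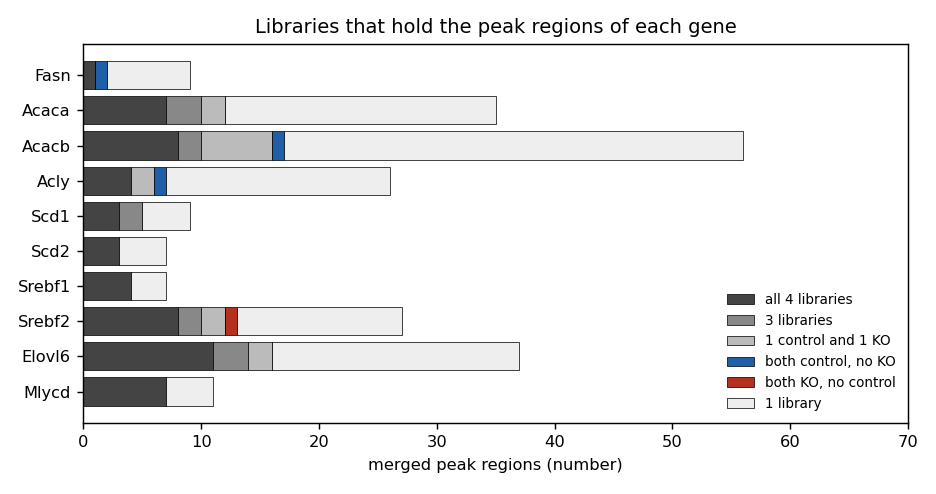
Number of merged peak regions (horizontal axis) within 5000 bp of each gene (vertical axis), split by the libraries that hold them. The dark bars, regions in all 4 libraries, run from 1 at Fasn to 11 at Elovl6, and the coloured bars, regions of 1 genotype, number 3 for control (blue) and 1 for KO (red).

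The genes differed in how many regions they held and in how strong these were. Elovl6 had 11 regions in all 4 libraries, Acacb and Srebf2 had 8 each, Acaca and Mlycd 7 each, Acly and Srebf1 4 each, Scd1 and Scd2 3 each, and Fasn 1. Longer genes have wider windows, which ran from 23.2 kb at Scd2 to 282.0 kb at Acaca. For the strongest region of each gene, the mean percentile over the 4 libraries was 99.8 ± 0.15 (SD, n = 4) at Acly, 98.0 ± 0.204 at Acaca, 98.0 ± 0.548 at Srebf1, 98.0 ± 0.695 at Acacb, 97.8 ± 1.68 at Srebf2 and 95.8 ± 0.455 at Mlycd. It was 92.5 ± 1.51 at Elovl6, 91.2 ± 1.35 at Fasn, 90.2 ± 1.61 at Scd2 and 76.6 ± 4.22 at Scd1. Acly led and Scd1 came last in each library, while Acaca, Srebf1, Acacb and Srebf2 lay within their spread of each other, as did Elovl6, Fasn and Scd2. The values of Mlycd overlapped those of Srebf2 and lay above those of Elovl6.

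**Figure D2:**
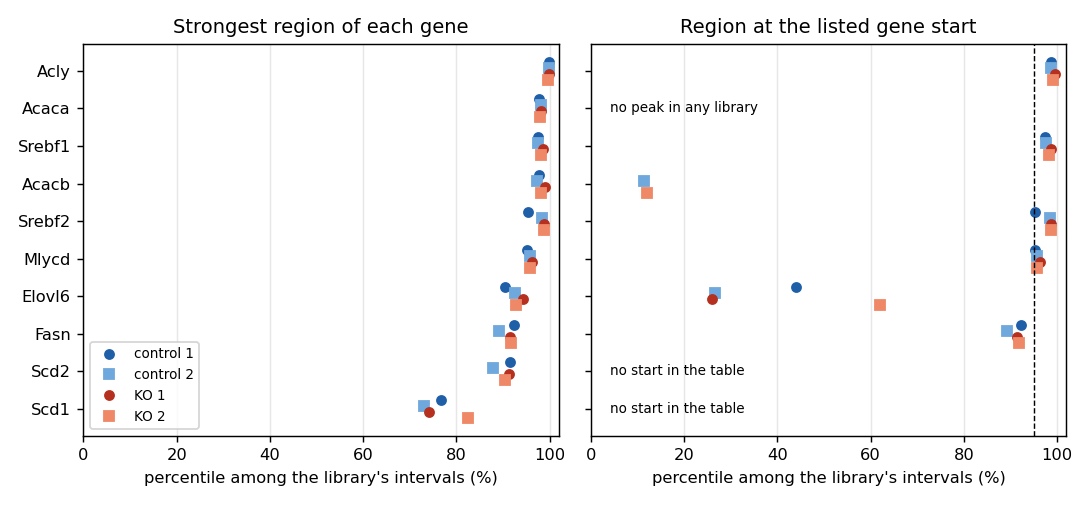
Percentile of a region among the intervals of its library (horizontal axis, percent) for the 2 control (blue) and 2 KO (red) libraries, at the strongest region of each gene (left) and at the listed gene start (right, for Srebf1 the strongest of 3 starts). The dashed line is the mean over the libraries of the median percentile of all gene starts held by all 4; Acly, Srebf1 and Srebf2 lie at or to the right of it, and Elovl6 and Acacb far to the left.

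Acly, ATP citrate lyase, splits exported citrate into the acetyl-CoA that feeds the pathway. It lies on chromosome 11 from 100476352 to 100528000 (mm10, minus strand). Its start ranked high among all peak intervals, with percentiles of 98.6 and 98.6 in the controls and 99.6 and 99.2 in KO. Both KO libraries were above both controls. The log2 difference in strength, KO minus control, was 0.16 ± 0.103 (SE), which did not pass the test (limma, adjusted p = 0.75). Strength here is the log2 of the authors' fold at the strongest summit, brought to the same distribution in each library by quantile normalization. Of the 11083 protein-coding gene starts with a peak in all 4 libraries (64.2% of 17274), 88.8% had a lower mean percentile. The strongest summit stood 34 to 41 bp after the first base in all 4 libraries. The window around it, from RefSeq (mm10), is shown because it carries 4 GC boxes (GGGCGG, bound by Sp1) and 1 CCAAT box (bound by NF-Y), read on both strands and printed in capitals. It is the minus strand of chr11:100527951-100528250, with 250 bases before the gene's first base and 50 from it on.
Acly start: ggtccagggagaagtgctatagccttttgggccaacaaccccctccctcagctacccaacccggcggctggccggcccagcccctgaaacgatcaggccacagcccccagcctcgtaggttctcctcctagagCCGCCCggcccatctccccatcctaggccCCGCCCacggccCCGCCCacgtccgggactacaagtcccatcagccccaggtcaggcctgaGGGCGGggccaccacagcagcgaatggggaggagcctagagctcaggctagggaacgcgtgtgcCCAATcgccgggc

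The most open region in the window of Acly, from 100471955 to 100473261 (99.9 and 99.8 in the controls, 99.9 and 99.6 in KO), was at the start of the neighbouring gene Klhl11. Inside Acly, the region from 100505068 to 100505279 was held only by the controls. Its peaks were weak, at percentiles 48.8 and 33.8 with a −log10 q of 2.10 and 1.70.

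Acaca, the cytosolic acetyl-CoA carboxylase that makes malonyl-CoA for synthesis, is known to be transcribed from several promoters. The reference table lists 1 start, at 84195438 on chromosome 11 well inside the gene (84129635 to 84401651), and no library had a peak there. Its window is poor in GC (39.7%, against a median of 53.0% over 32619 start windows) and held none of the motifs searched. It is printed for contrast with the windows of the open starts (plus strand of chr11:84195188-84195487, mm10, RefSeq).
Acaca listed start: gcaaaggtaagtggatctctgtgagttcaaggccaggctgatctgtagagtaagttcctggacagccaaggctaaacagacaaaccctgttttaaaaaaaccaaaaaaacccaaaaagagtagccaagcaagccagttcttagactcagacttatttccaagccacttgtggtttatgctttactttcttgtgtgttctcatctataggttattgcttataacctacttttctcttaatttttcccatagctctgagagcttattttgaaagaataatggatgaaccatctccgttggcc
The strongest region of Acaca lay upstream of that start, at −15690 bp, from 84179072 to 84180425. It stood at 97.8 and 98.2 in the controls and 98.2 and 98.1 in KO, so the genotypes overlapped (log2 difference 0.00 ± 0.115). At the lower edge of the gene, a region shared with the start of Tada2a (84128947 to 84129897) was at 95.6 and 93.8 in the controls and 91.2 and 93.7 in KO. This was the only one of the 7 regions of Acaca in all 4 libraries with both controls above both KO libraries, and the difference of −0.28 ± 0.164 did not pass the test (limma, adjusted p = 0.73). The other 6 overlapped between genotypes. The 7 differences ran from −0.32 to 0.00, with a median of −0.14.

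Acacb, the carboxylase isoform at the mitochondrial outer membrane whose malonyl-CoA is known for restraining CPT1, lies on chromosome 5 (114146321 to 114250761). As at Acaca, the 1 listed start (114165518) lies well inside the gene. The region there held weak peaks of control 2 (percentile 11.3) and KO 2 (12.0) and none of the other libraries. Only the interval of KO 2 covered the first base of this listed start. Its strongest region lay 10436 bp further in, from 114175471 to 114176437, at 97.8 and 97.2 in the controls and 98.9 and 98.2 in KO. Both KO libraries were above both controls there (log2 difference 0.13 ± 0.114, limma, adjusted p = 0.84). A second strong region, 33936 bp after the start (114198845 to 114200064), was at 94.6 and 94.4 in the controls and 94.5 and 95.9 in KO.

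Acacb also held the widest swings among the 56 regions. The largest rise was at 114246571 to 114246743, where the percentiles were 2.17 and 48.5 in the controls and 45.3 and 62.1 in KO. The controls differed there by more than the genotypes did, and the log2 difference was 0.44 ± 0.282 (limma, adjusted p = 0.76). It was 0.11 without control replicate 1, 0.76 without control replicate 2 and 0.28 without KO replicate 2. The largest fall was at 114212956 to 114213716, with 82.5 and 72.8 in the controls and 41.4 and 76.4 in KO, so that KO 1 alone was low (−0.57 ± 0.321, adjusted p = 0.71 with limma). This difference was −0.10 without KO replicate 1, −0.38 without control replicate 1 and −1.06 without KO replicate 2. The next largest fall, at 114239676 to 114240029, had both controls (67.3 and 77.7) above both KO libraries (54.8 and 63.1), with a difference of −0.47 ± 0.303 (limma, adjusted p = 0.76) that was −0.18 without control replicate 2 and −0.76 without control replicate 1. A region from 114223850 to 114224030 was held only by the controls, at 56.5 and 22.6.

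Mlycd, malonyl-CoA decarboxylase, turns malonyl-CoA back into acetyl-CoA. Its start on chromosome 8 (119394894) was at 95.2 and 95.8 in the controls and 96.3 and 95.7 in KO, close to the median of open starts (95.2, 94.4, 95.7 and 95.3 in the same libraries). The genotypes overlapped, with a log2 difference of 0.02 ± 0.138. All 7 of its regions seen in at least 2 libraries were held by all 4. Among them both KO libraries were above at 2 and both controls at 1. The one with both controls above (119422068 to 119422454) lay downstream of Mlycd and overlapped Gm32006. So did 1 of those with KO above (119425491 to 119425924), which was at the start of Gm32006 and also overlapped Osgin1. The regions from 119423578 to 119424598 and from 119424843 to 119425124 were downstream over Gm32006 as well. The start window held 3 CCAAT boxes, with one pair lying head to head within 10 bases, and had a GC content of 68.0%.

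Fasn, the multifunctional synthase that builds palmitate from malonyl-CoA, had its 1 region in all 4 libraries at its start (chromosome 11, 120823582 to 120824974, over the first base at 120824547, minus strand). The percentiles were 92.3 and 89.2 in the controls and 91.4 and 91.8 in KO. The KO values fell between those of the controls, and the log2 difference was 0.01 ± 0.178. The start of Fasn was less open than most, with 34.0% of open starts below it. The strongest summit lay 95 bp before the first base in control 1 and 104 bp before it in KO 2, but 369 bp and 358 bp after it in control 2 and KO 1. The interval over the start held 6 or 7 summits in each library, and the position of the strongest did not follow genotype. The window (minus strand of chr11:120824498-120824797, mm10, RefSeq) is printed for its 3 CCAAT boxes in capitals, 2 of which overlap on opposite strands.
Fasn start: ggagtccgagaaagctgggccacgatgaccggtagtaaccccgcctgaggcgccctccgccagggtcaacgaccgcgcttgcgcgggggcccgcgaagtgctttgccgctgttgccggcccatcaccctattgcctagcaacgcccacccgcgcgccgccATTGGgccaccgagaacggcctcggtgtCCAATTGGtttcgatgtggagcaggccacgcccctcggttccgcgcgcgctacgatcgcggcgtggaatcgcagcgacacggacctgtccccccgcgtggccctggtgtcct
The region from 120823186 to 120823353 was held only by the controls, where it was at percentiles 27.9 and 0.0942 with a fold of 2.63 and 1.67. It lies close to the start region.

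Elovl6, the elongase that takes palmitate to stearate, runs from 129532386 to 129638495 on chromosome 3. It had an unusually weak start, which it shares with the predicted gene Gm35986. The percentiles there were 44.0 and 26.6 in the controls and 25.9 and 62.1 in KO, and 1.3% of open starts were lower. Libraries of the same genotype differed more than the genotypes did (log2 difference 0.20 ± 0.274), and the difference turned to −0.10 without KO replicate 2. The window (plus strand of chr3:129532136-129532435, mm10, RefSeq) is shown as the only start window of these genes with a PU.1 core (GAGGAAGT, in capitals as its reverse complement), which 3.22% of all start windows hold.
Elovl6 start: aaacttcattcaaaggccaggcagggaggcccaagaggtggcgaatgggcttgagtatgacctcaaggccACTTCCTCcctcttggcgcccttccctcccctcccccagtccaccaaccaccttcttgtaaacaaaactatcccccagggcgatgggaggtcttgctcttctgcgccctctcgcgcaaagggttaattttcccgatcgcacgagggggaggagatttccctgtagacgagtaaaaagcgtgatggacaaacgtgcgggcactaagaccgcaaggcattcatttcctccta
The strongest region of Elovl6 was 4003 bp after the start (129536237 to 129536541), at 90.5 and 92.5 in the controls and 94.2 and 92.8 in KO. Of its 11 regions in all 4 libraries, 4 had both KO libraries above both controls and 2 the reverse. The largest rise was at 129533387 to 129534468, 1541 bp after the start, where the controls were at 69.2 and 63.8 and KO at 78.2 and 77.4. The libraries of each genotype lay close together there, and the difference of 0.41 ± 0.279 did not pass the test (limma, adjusted p = 0.77).

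Scd1 and Scd2 encode stearoyl-CoA desaturases, which place the double bond that makes oleate, and both lie on chromosome 19. At Scd2 (44293676 to 44306864) the strongest region covered the lower edge of the gene (44293534 to 44295206), at 91.4 and 87.9 in the controls and 91.3 and 90.4 in KO. At Scd1 (44394450 to 44407709) a cluster of 3 regions stood at and just above the upper edge. The middle one (44408140 to 44408469) was at 76.7 and 73.1 in the controls and 74.2 and 82.5 in KO. The outermost (44408597 to 44408884) was at 53.0 and 65.1 in the controls and 52.5 and 19.6 in KO, the third largest fall among the members (−0.37 ± 0.282, limma, adjusted p = 0.80). It was −0.16 without control replicate 2, −0.19 without KO replicate 2, −0.58 without control replicate 1 and −0.56 without KO replicate 1. Both controls were above both KO libraries there, control 1 and KO 1 by a margin of less than 1 percentile point. All 3 regions of Scd2 seen in at least 2 libraries were held by all 4.

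Srebf1 encodes SREBP1, whose 1a and 1c forms are known to start from separate promoters. The reference table lists 3 starts on the minus strand of chromosome 11, and all were open in every library. The region at 60210234 to 60210994 was the strongest, at 97.4 and 97.6 in the controls and 98.6 and 98.2 in KO (log2 difference 0.11 ± 0.115, limma, adjusted p = 0.87). The region at 60220287 to 60220949 was at 87.1 and 87.3 in the controls and 92.3 and 89.7 in KO (0.22 ± 0.192, limma, adjusted p = 0.84). Both KO libraries were above both controls at these 2 starts. At the start farthest upstream (60222453 to 60223301) the groups overlapped, at 90.4 and 87.8 in the controls and 88.6 and 90.5 in KO. The window of the strongest start (minus strand of chr11:60210422-60210721, mm10, RefSeq) is printed for its 2 GC boxes and 1 CCAAT box.
Srebf1 strongest start: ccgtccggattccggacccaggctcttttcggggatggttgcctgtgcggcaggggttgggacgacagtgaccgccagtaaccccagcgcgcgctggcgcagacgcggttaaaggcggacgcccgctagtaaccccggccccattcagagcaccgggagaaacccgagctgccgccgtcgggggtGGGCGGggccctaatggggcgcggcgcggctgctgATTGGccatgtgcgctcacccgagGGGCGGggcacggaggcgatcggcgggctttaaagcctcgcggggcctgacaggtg

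Srebf2, which encodes SREBP2, runs from 82147269 to 82205379 on chromosome 15. Its start was at 95.3 and 98.4 in the controls and 98.8 and 98.7 in KO. The KO libraries agreed closely and lay above both controls, and control 1 stood apart from the other 3 libraries. The log2 difference of 0.24 ± 0.135 had the lowest unadjusted p among the 56 regions (0.086 by limma) and did not pass the test after adjustment (0.71). It was 0.02 without control replicate 1 and 0.47 without control replicate 2, so its size rested on control 1. The strongest summit lay 113 and 123 bp before the first base in the controls and 133 and 148 bp before it in KO. The window (plus strand of chr15:82147019-82147318, mm10, RefSeq) held 5 GC boxes and 1 CCAAT box, the most matches of the 10 windows.
Srebf2 start: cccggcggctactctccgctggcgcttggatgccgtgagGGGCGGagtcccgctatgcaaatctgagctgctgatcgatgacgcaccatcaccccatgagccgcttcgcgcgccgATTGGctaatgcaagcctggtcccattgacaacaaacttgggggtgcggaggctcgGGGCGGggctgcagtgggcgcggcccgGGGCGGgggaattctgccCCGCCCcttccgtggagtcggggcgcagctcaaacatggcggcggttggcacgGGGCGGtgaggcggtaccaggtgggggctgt
Further into Srebf2, both KO libraries were also above both controls at 82186910 to 82187396 (73.4 and 62.2 against 75.9 and 74.7), at 82188961 to 82189132 (42.3 and 29.7 against 52.8 and 67.5) and at 82196424 to 82196763 (60.4 and 46.7 against 65.9 and 72.5). The log2 differences were 0.23, 0.43 and 0.40, and for the second of these limma gave an SE of 0.276 and an adjusted p of 0.75. Without KO replicate 2 the second was 0.24. A region from 82182044 to 82182187 was the only one held by both KO libraries and by neither control. It was weak, at percentiles 11.9 and 36.4 with a −log10 q of 0.622 and 1.48.

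Srebf2 also hosts Mir33, a microRNA known for repressing genes of cholesterol export and fatty acid oxidation, Cpt1a among them. Its hairpin (82198122 to 82198190) lay within a region from 82197252 to 82198692. There the controls, at 83.0 and 83.8, were above KO, at 81.1 and 82.5, the opposite order to the other 4 regions of Srebf2 that did not overlap between genotypes. The log2 difference was −0.16 ± 0.237 (limma, adjusted p = 0.91). The mature form is printed with its seed, bases 2 to 8, in capitals.
mmu-miR-33-5p: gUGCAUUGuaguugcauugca

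**Figure D3:**
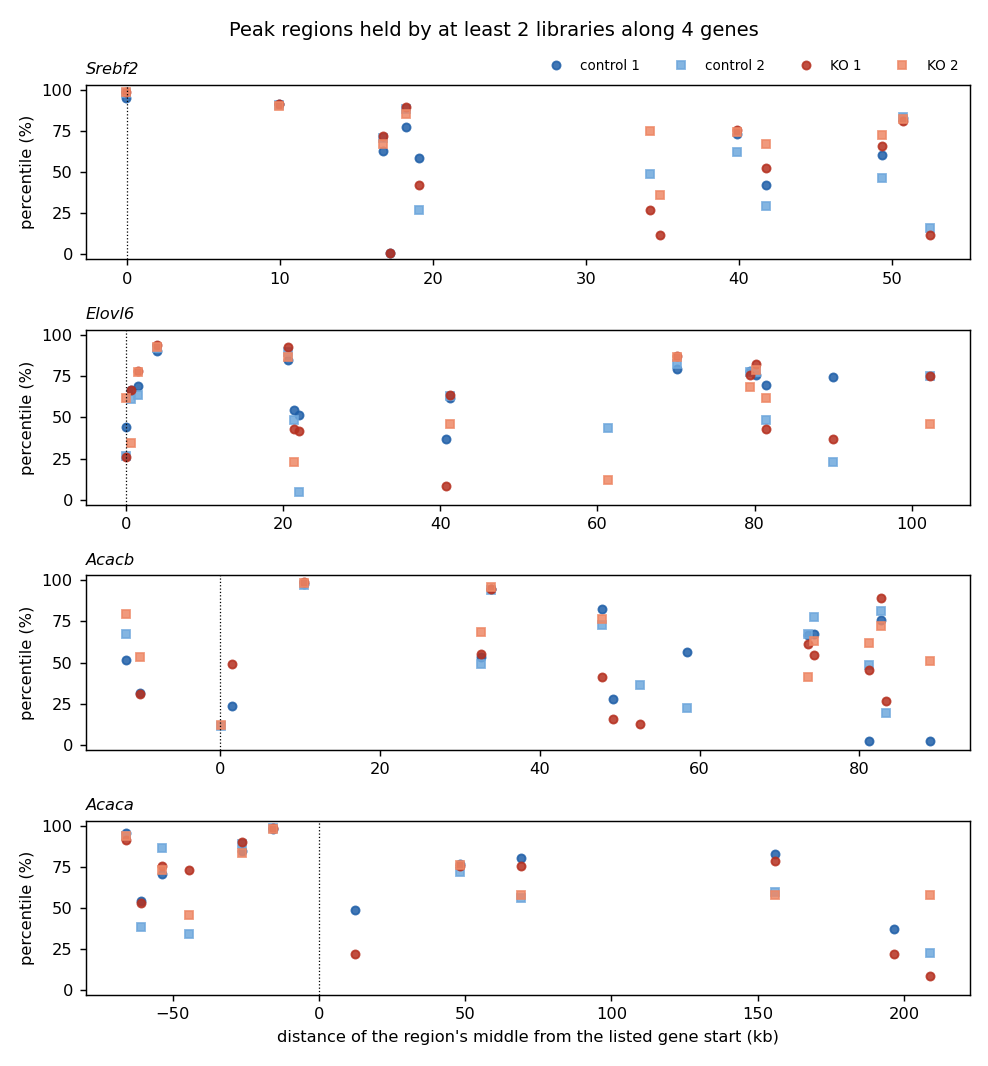
Percentile of each region held by at least 2 libraries (vertical axis, percent) against the distance of its middle from the listed gene start (horizontal axis, kb) for Srebf2, Elovl6, Acacb and Acaca; controls are blue, KO red, and a missing point means no peak in that library. The start of Srebf2 is near the top of the scale in all 4 libraries, while the strongest regions of Elovl6, Acacb and Acaca lie at 4003, 10436 and −15690 bp from the listed start.

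Across the 56 regions in all 4 libraries, both KO libraries ranked above both controls at 16 (28.6%) and both controls above both KO libraries at 8 (14.3%). The same shares over the 80271 regions of the genome were 22.2% and 15.1%. The groups overlapped at the remaining 32. The median log2 difference was 0.02, with quartiles of −0.15 and 0.14, against 0.00, −0.18 and 0.18 over all regions, and 30 regions were higher and 26 lower in KO. With normal scores of −log10 p, which are not on the log2 scale, the median turned to −0.05. No member passed the test. limma called 0 of all 80271 regions in either direction at an adjusted p under 0.05 (0%), and 6123 of them (7.63%) and 0 of the 56 members had an unadjusted p under 0.05. With 2 libraries against 2, an exact permutation test of a single region cannot go below a two-sided p of 0.33.

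**Figure D4:**
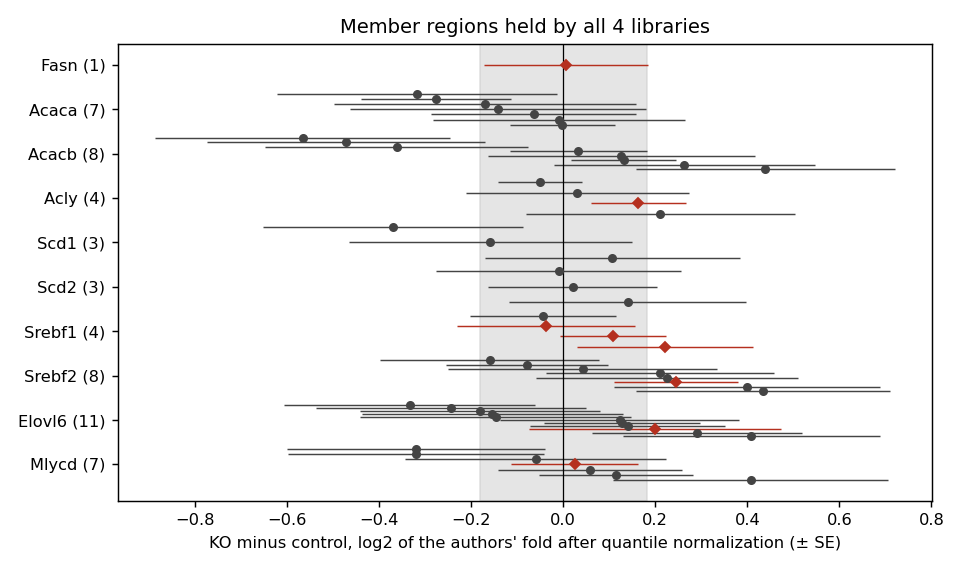
KO minus control difference of each member region in all 4 libraries (horizontal axis, log2 of the authors' fold after quantile normalization, with SE) by gene (vertical axis, number of regions in parentheses); red diamonds are regions at a listed gene start and the grey band spans the quartiles of all regions, −0.18 to 0.18. The values run from −0.57 to 0.44, and 1 SE crosses 0 for most regions.

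The spread between libraries of the same genotype was narrower at strong regions, on a percentile scale that is bounded at 100 and with an SE that follows limma's intensity trend. For the 15 regions with a mean percentile of at least 90, libraries of the same genotype differed by a median of 0.66 percentile points and by at most 3.5, and the SE of the log2 difference had a median of 0.15. For the 41 weaker regions the median was 7.56 points, the highest 47.9 and the median SE 0.28. Both KO libraries were above at 6 of the 15 strong regions and both controls at 1, against 25.5% and 12.9% of the 16659 strong regions of the genome. Among the 41, KO was above at 10 and control at 7, against 21.4% and 15.7%.

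The members also took up fewer bases in KO, as the lists did as a whole. Their intervals covered 44.0 and 38.2 kb in the controls and 31.6 and 33.3 kb in KO, and these were 0.0832% and 0.0781% of all covered bases in the controls against 0.0741% and 0.0751% in KO. The mean member interval was 339 and 347 bp in the controls and 245 and 314 bp in KO. Both KO libraries had less covered length than both controls at 8 of the 10 genes, all but Srebf2 and Mlycd, as did 46.9% of the 30742 genes of any length with a peak in each library. They had fewer summits at 6 (Fasn, Acacb, Scd1, Scd2, Srebf1 and Elovl6), against 20.4% of all these genes. No gene had more of either in both KO libraries. The covered length did not follow the number of intervals, as KO 1 had the most intervals (196611) and the least covered length (42.59 Mb). Intervals were shorter in KO over the whole lists, and the part of this in these counts was not tested.

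The start windows of 8 members, 10 in all, were searched for sites of the factors that control the pathway. A sterol regulatory element (TCACNCCAC, bound by SREBPs) was found in 0 of 10 windows and in 1.25% of all 32619 windows. An E-box (CACGTG) was found in 0 (7.2% of all), and the direct repeat of AGGTCA bound by LXR in 0 (0.0153% of all). A CCAAT box was found in 7 windows of 6 genes, with 11 matches (37.6% of all windows), and a GC box in 4 windows of 3 genes, with 14 matches (35.9% of all). Only exact matches to these letters were counted, so variants of a site were missed. For the motifs found in 0 windows, the shares over all windows are too low for 10 windows to tell a lack. The windows hold 250 bases before and 50 after the first base, and sites outside them were not searched. Fasn, Acly, Srebf2, Mlycd and the strongest start of Srebf1 had a GC content of 68.0% to 70.7% and were all at percentile 89.2 or above, whereas the listed starts of Acaca (39.7%), Acacb (51.7%) and Elovl6 (55.7%) were closed or weak. The start farthest upstream of Srebf1, with a GC content of 54.3%, was at 87.8 or above in each library.

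Other genes of the pathway were open in much the same way. Across 57 genes in 5 lists, 285 regions were seen in at least 2 libraries. Of these, 174 were in all 4 (61.1%), 22 only in control (7.72%) and 6 only in KO (2.11%), against 58.4%, 6.05% and 3.47% over the genome. Both KO libraries were above at 43 of the 174 (24.7%) and both controls at 19 (10.9%), against 22.2% and 15.1% over the genome. limma called none of them in either direction, as over the genome. An unadjusted p under 0.05 was found at 13 of the 174, where the share over the genome was 7.63%. Of 44 genes with a listed start, 40 had a peak there in all 4 libraries, against 64.2% of protein-coding genes. Scd3, a desaturase of skin, had none in any library, and Thrsp, Scd4 and Lpin1 had one in 3.

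In the list drawn up for SREBP control, 6 of 49 regions (12.2%) were held only by controls and 2 (4.08%) only by KO. The shares over the genome were 6.05% and 3.47%. The 9 genes of this list include Mlxipl and Mlx, so its shares are not those of SREBP regulators alone. Mlxipl, which encodes the carbohydrate-responsive factor ChREBP, held 16 of the 49 regions, 3 of them only in control. Mbtps1, the site-1 protease that cuts SREBPs, had 2 only in control and 1 only in KO, Mbtps2 had 1 only in control, and Scap, the SREBP escort, had 1 only in KO. Of the 27 regions of this list in all 4 libraries, both KO libraries were above at 10 (37%) and both controls at 1 (3.7%), against 22.2% and 15.1% over the genome. This was the highest KO share and the lowest control share of the 5 lists. In the other lists both KO libraries were above at 21.7% to 23.3% and both controls at 7.5% to 17.4%. In the malonyl-CoA and AMPK list Acsf3, the mitochondrial malonyl-CoA synthetase, had 3 regions only in control and Thrsp 1. Among the genes that supply acetyl-CoA and NADPH, Acss2 and Pgd had 1 each only in control. In elongation, desaturation and esterification, Elovl7 had 3 only in control, Fads2 and Gpam 2 each and Agpat2 1, while Scd3 had 1 only in KO. Among the SREBP2 targets of cholesterol metabolism, Fdps had 1 region only in control, and Cyp51 and Dhcr7 had 1 each only in KO.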

How the data were processed

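ATAC-Seq was measured in 4 libraries, 2 control and 2 Cpt1a-KO. Per the labels' processing notes, the authors used Bowtie2, MACS2 and the mm10 build, with versions not given in the sources used here. The deposited lists have 1 row per summit, called on each library separately, with a fold (the ratio of signal to local background), a −log10 p and a −log10 q (the p-value and q-value of the caller) and a score derived from them by the authors, which was not used. Every row had a −log10 p of at least 2.0. Summits written as chromosome positions (253 to 492 per list) were read that way. The lists hold no counts, so depth and the precision it gives are unknown, and the study's DiffBind and edgeR test, which needs reads, was not run.

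Intervals on the autosomes and X that overlapped by at least 1 bp were merged (Python 3.11.15, pandas 2.3.3, numpy 2.4.6). Gene positions came from a RefSeq table (GRCm38.p6, the same coordinates as mm10), which gives no exons or introns. Start windows and microRNAs came from RefSeq tables of the same build, with a start for 8 of the 10 genes. Strength, the log2 of the authors' fold at a region's strongest summit, was quantile-normalized and tested with limma 3.58.1 (R 4.3.3, empirical Bayes with intensity trend) over the 80271 regions in all 4 libraries, with Benjamini-Hochberg adjustment and a threshold of 0.05, so regions missing from a library were not tested. P-values measure only the spread between these libraries. In simulated data with 200 changed regions of 80271, limma called 32.5% of those changed by 2 on the log2 scale, with 5 false calls, and 0% of those changed by 1. The simulated noise of each region used its own SD, estimated from only 2 libraries per genotype. Such SDs vary more between regions than true ones, so these shares do not give the power of the test on the real data.

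The genes and lists were chosen with earlier results of these data known. Regions named were those at member starts, the strongest region of each member, every region of 1 genotype, and the 3 largest rises and 3 largest falls. Of the other lists, genes with a region of 1 genotype or no peak at the start were named. Some genes that this rule covers are not reported here. The region holding Mir33, the second Acacb region, the 2 further Srebf2 regions, the Tada2a edge and the middle Scd1 region were added after their values were seen. Alternatives changed the threshold on peaks, the length of the lists, the overlap, the flank, the measure, its normalization, the filter, the variance prior, the ranking, the replicate block and the libraries included.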

Additional observations from a re-analysis of the deposited data

How the results depend on the processing

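Counts of regions of 1 genotype changed with the threshold on peaks, the overlap required, the interval used and the libraries included. The 3 member regions only in control became 1 with a −log10 q of at least 5 (Acacb, 114239676 to 114240029, where the KO peaks fell below it), 0 where presence needed that threshold and absence no peak at all, 0 with the 100000 strongest summits of each library, and 7 with a covered share of at least 0.5 or windows of 200 bp around summits. The 1 region only in KO became 0 in each of these settings except the covered share, and 0 with lists of equal length. Regions in all 4 libraries went from 56 to 37 of 48 with the −log10 q threshold and to 35 of 45 with the 100000 strongest summits, where fewer peaks enter by construction. Leaving out 1 library in turn gave 4 to 53 regions only in control and 3 to 33 only in KO (more by construction, since 1 library then stands for its genotype). The counts without control replicate 1, control replicate 2, KO replicate 1 and KO replicate 2 were 33, 53, 8 and 4 only in control and 3, 5, 33 and 32 only in KO.

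limma called 1 region with normal scores of −log10 p and 1 with median centring, none of them a member, and 0 with each library left out. With the replicate number as a block it called 54 (18 higher and 36 lower in KO), of which 0 were members. The labels share only a number: with 2 pairs, the deviations of control 1 and KO 1 correlated by 0.00466 over 80271 regions. Ranked by −log10 p, the mean start percentile was 97.4 at Fasn, 99.7 at Acly and 63.1 at Elovl6, in place of 91.2, 99.0 and 39.7, and at Mlycd it was 96.4 among summits in place of 95.8. The median member difference of 0.0225 was 0.0706 with median centring and 0.0134 to 0.0792 with a library left out. With normal scores of −log10 p, which are not on the log2 scale, it was −0.0527, so its sign changed. The median replicate SD of a single member region was 0.147, which is not the spread of a median over 56 regions and does not measure these moves. Of 119 values for named regions, 8 changed sign. With normal scores, whose differences are not log2 values, the sign changed at Fasn (−0.101, against 0.00632 in log2). It also changed at the strongest Srebf1 start (−0.00341, against 0.108 in log2). With 1 library left out, Fasn ranged from −0.0771 (without control replicate 2) to 0.09, with −0.0499 without KO replicate 2, and the Srebf1 start farthest upstream from −0.149 to 0.0766 (without KO replicate 1), with 0.0144 without control replicate 1. Elovl6 ranged from −0.101 (without KO replicate 2) to 0.493 and Mlycd from −0.0331 (without control replicate 1) to 0.0834. The cause of these moves was not tested. The unknown depth limits every count, because a missing peak can be one that was not detected.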
